A study of Mus musculus with 9 samples.

Results

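The replication-dependent histone genes encode the core histones H2A, H2B, H3 and H4 and the linker histone H1 that package newly copied DNA. The members were all protein-coding genes whose symbol in the GENCODE M21 mouse annotation begins with Hist1h, Hist2h, Hist3h or Hist4, which gave 65 of the 48440 genes in the count tables. By type they comprise 6 H1, 18 H2A, 16 H2B, 12 H3 and 13 H4 genes. The Hist1 cluster on chromosome 13 holds 52 of them, the Hist2 cluster on chromosome 3 holds 10, Hist3 on chromosome 11 holds 2 and Hist4 on chromosome 6 holds 1. In the annotation 60 of the members have a single exon. A few members are known as testis histones (Hist1h1t, Hist1h2aa and Hist1h2ba), so the symbol rule is somewhat wider than the class it names.

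The libraries come from J1 mouse embryonic stem cells of the genotype Suz12-AID, grown in serum with LIF and 2 inhibitors. Suz12 belongs to the core of Polycomb repressive complex 2, a methyltransferase for histone H3, and AID is a degron that directs a protein to destruction when auxin is present. All 3 groups carry the tagged allele: Mock, Auxin (50 µM indole-3-acetic acid for 96 h) and Reintroduction (auxin washed out for 4.5 h), with 3 biological replicates each. The labels give no number of clones and do not say what Mock cells received, and there is no untagged or wild-type group.

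Replication-dependent histone mRNAs are made in S phase and are the only known animal mRNAs from nuclear genes that normally lack a poly(A) tail. They end instead in a short stem-loop bound by SLBP, and the cut behind it is made by a complex that contains the U7 snRNP and CPSF subunits. NPAT drives their transcription at histone locus bodies when cyclin E and CDK2 are active. Poly(A)-selected libraries such as these therefore do not retain most histone mRNA, and the levels given here are not total histone mRNA.

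The stem-loop is printed first because it is the feature that defines the class. A 16-letter pattern of the histone stem-loop, with a TTTT stretch and paired arms, was searched on the sense strand of M21 transcripts and found in 42 of the 65 members and 44 of the 67 members in the annotation (65.7%), against 0.128% of other protein-coding genes. No match says only that the letters are absent from the model. The stem-loop is in capitals with 5 bases on each side for the members on which the results turn.
Hist3h2a: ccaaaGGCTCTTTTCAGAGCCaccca
Hist3h2ba: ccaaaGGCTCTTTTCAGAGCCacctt
Hist2h3c2: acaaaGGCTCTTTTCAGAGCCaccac
Hist1h1c: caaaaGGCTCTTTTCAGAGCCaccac
Hist1h2bj: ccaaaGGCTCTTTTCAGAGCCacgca
Hist1h4c: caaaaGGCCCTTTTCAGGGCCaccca
Hist4h4: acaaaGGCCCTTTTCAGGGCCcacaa
Hist1h4j: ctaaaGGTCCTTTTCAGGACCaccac
The form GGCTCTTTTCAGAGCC occurred in 24 members of types H1, H2A, H2B and H3 and in 0 H4 genes. The 11 H4 genes with a stem-loop carried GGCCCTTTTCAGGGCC (7 genes), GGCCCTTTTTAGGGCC (2 genes) or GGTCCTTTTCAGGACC (2 genes), which were found in no other type. The other forms were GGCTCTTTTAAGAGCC (6 genes of types H1, H2B and H3) and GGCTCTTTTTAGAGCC (1 H2A gene).

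Promoters from RefSeq on GRCm38.p6 were available for 60 members, as 300-base windows from 250 bases before to 50 bases after the start. Motifs were searched on both strands: the octamer ATTTGCAT, known as a site of Oct factors in H2B promoters, the TATA box letters TATAAA, the NF-Y type letters CCAAT, and the E2F-type site TTTCCCGC. CCAAT was present in all H1, H2A, H2B and H3 windows but in 3 of 12 H4 windows (25.0%), against 41.1% of all windows in the table. The octamer was present in 7 of 18 H2A and 5 of 14 H2B windows and in 0 of the other types, against 2.0% of all windows. TATAAA was present in 58.3% of member windows against 15.7% of all, and TTTCCCGC in 1.7% against 1.2%. These matches are descriptions of letters, not of binding. The 250 bases upstream of 4 genes follow with motif letters in capitals: the 2 Hist3 genes, which lie within 10 kb of each other and changed in the same direction, and 2 Hist1 genes with large falls.
Hist3h2a, chr11:58954435-58954684, + strand: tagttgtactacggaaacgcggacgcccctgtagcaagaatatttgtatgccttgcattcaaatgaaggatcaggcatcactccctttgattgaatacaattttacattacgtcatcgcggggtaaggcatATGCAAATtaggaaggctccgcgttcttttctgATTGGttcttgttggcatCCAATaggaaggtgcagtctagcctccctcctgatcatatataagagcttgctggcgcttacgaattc
Hist3h2ba, chr11:58948661-58948910, + strand: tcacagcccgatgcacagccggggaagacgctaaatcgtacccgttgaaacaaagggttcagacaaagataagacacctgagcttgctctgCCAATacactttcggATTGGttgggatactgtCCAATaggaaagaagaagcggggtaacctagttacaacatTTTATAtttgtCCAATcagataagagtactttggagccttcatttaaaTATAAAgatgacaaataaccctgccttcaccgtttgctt
Hist1h2bj, chr13:22042948-22043197, + strand: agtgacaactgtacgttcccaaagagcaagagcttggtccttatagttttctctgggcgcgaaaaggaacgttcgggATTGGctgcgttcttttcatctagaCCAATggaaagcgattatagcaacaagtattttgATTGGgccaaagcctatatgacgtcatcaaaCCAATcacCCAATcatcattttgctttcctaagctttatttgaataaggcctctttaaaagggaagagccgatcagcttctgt
Hist1h4c, chr13:23698459-23698708, - strand: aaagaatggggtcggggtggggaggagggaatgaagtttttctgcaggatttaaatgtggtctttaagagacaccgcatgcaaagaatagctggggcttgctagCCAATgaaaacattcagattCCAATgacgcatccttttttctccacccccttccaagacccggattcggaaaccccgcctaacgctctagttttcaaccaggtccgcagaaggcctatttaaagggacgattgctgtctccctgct
In these stretches the octamer letters occur upstream of Hist3h2a and the TATAAA letters upstream of Hist3h2ba, while all 4 hold CCAAT on at least 1 strand.

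Total counts per library ranged from 44341283 to 113931419, and 20838 genes had enough counts to be tested. Suz12 mRNA, which does not measure the degron's effect on the protein, had 125 to 138 CPM in Mock, 122 to 152 in Auxin and 164 to 172 in Reintroduction (CPM, counts per 1000000 counts of the library, with library sizes adjusted by the trimmed mean of M-values, TMM). It was called higher in Reintroduction than in Mock (log2 change 0.33, adjusted p = 0.00341) and than in Auxin (0.25, adjusted p = 0.0245), and did not pass in Auxin against Mock (0.09, adjusted p = 0.349). Stem cell markers were high in all groups: the summed level of 8 markers was 5541 to 5666 CPM in Mock, 6780 to 7285 in Auxin and 5309 to 5407 in Reintroduction. Of 7 fibroblast feeder markers, Col3a1, Dcn, Lum and Postn were too low to be tested, and the list summed to 17.8 to 20.02 CPM in Mock, 39.0 to 46.4 in Auxin and 37.4 to 38.8 in Reintroduction. Nearly all of that sum was Thy1 (means of 17.9, 41.2 and 37.5 CPM), while Col1a1 fell in Auxin (log2 change -1.47, adjusted p = 5.99e-04). The 7 primitive endoderm markers summed to 5.998 to 7.47 CPM in Mock, 22.7 to 23.6 in Auxin and 14.2 to 15.98 in Reintroduction. All 7 were called higher in Auxin than in Mock, beside 38.4% higher and 34.8% lower over all genes tested. The part of these markers in the histone results was not tested. Mock replicate 1 stood apart in RNAs that lack a poly(A) tail outside the histone family: 15 such RNAs, with 7SK RNA (Rn7sk) at the top, summed to 17.3 CPM there, against 3.54 and 4.76 in the other Mock libraries, 3.04 to 4.72 in Auxin and 4.86 to 7.69 in Reintroduction. Of these 15 RNAs, 9 were tested, Rnu11 was at 0 in all libraries, and Rmrp, Terc, Rnu12, Rny3 and Vaultrc5 were too low to test. Without that library 0 of the 9 tested RNAs were called in Auxin against Mock, against 2 lower (Rpph1 and Rn7s2) with it, and the median log2 change moved from -0.70 to -0.05.

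Histone genes took up a very small part of the counts. The 65 members together had 0.00254% to 0.00306% of all counts in Mock, 0.00289% to 0.00309% in Auxin and 0.00235% to 0.00270% in Reintroduction, or 19219 counts over the 9 libraries. In Mock replicate 1 the share was 0.00306%, with 3483 counts. A single gene, Hist1h2bc, held 18.0% of all histone counts and the top 10 held 53.7%. Just 4 members had a mean of at least 1 CPM: Hist1h2bc, Hist1h1c, Hist1h4i and Hist2h2be. Per kilobase of exon, the highest mean levels were 6.86 CPM for Hist1h2bc, 2.73 for Hist1h4i, 1.86 for Hist1h2af and 1.73 for Hist1h1c.

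Of the 65 members, 51 were tested and 14 were not. Of the untested genes, 5 had 0 counts in every library (Hist2h2aa1, Hist2h2aa2, Hist2h2bb, Hist2h3b and Hist2h3c1), and all bases of their exons are overlapped by another gene. For these genes the counting, which dropped reads overlapping more than 1 gene, could not give a value. The other 9 had 2 to 57 counts over all libraries, among them the testis genes Hist1h1t, Hist1h2aa and Hist1h2ba with 8, 2 and 43. No tested member reached the count filter in 1 group only.

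The summed level of the family did not separate Auxin from Mock. It was 29.4 ± 3.79 CPM in Mock, 28.2 ± 0.733 in Auxin and 24.7 ± 1.75 in Reintroduction (mean ± SD, n = 3 each). The Mock libraries had 33.8, 27.3 and 27.2 CPM, the Auxin libraries 28.6, 27.4 and 28.6, and the Reintroduction libraries 26.6, 23.2 and 24.15. Mock replicate 1 was the highest of all, and the Auxin values lay between it and the other Mock libraries. The Auxin to Mock ratio of 0.959 became 1.11 when libraries were scaled by total counts, so its direction depended on the scaling. With TMM scaling all 3 Reintroduction libraries lay below all Mock and all Auxin libraries, with a ratio to Mock of 0.838. As a share of total counts without TMM, Reintroduction (to 0.00270%) and Mock (from 0.00254%) overlapped. By that share Reintroduction still lay below Auxin (from 0.00289%). Without Mock replicate 1 the Mock mean was 27.2 CPM.

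The sums of the types follow. H2A genes had sums of 6.27, 7.35 and 5.72 CPM for the Mock libraries, 5.32, 4.88 and 5.21 for Auxin, and 3.17, 3.61 and 4.12 for Reintroduction. The 3 groups did not overlap, with ratios of 0.797 (Auxin to Mock) and 0.564 (Reintroduction to Mock). Hist3h2a, described further on, weighs heavily in the Auxin sum. With this gene left out, a choice made after the values were seen, the other H2A genes had 6.31 ± 0.797 CPM in Mock, 3.16 ± 0.274 in Auxin and 3.401 ± 0.375 in Reintroduction (mean ± SD, n = 3). For them Auxin (2.86 to 3.39) and Reintroduction (3.02 to 3.77) overlapped and both lay below Mock (5.59 to 7.17). As a share of total counts without TMM, the full H2A sum of Mock (from 0.000534%) and Auxin (to 0.000570%) overlapped. H1 genes had sums of 4.24, 2.41 and 3.27 CPM for the Mock libraries, 4.19, 5.43 and 3.99 for Auxin, and 2.71, 1.98 and 2.36 for Reintroduction. Auxin and Mock overlapped for H1, while every Auxin library lay above every Reintroduction library, with a Reintroduction to Auxin ratio of 0.518. H2B, the type with the highest sum, had 11.1 ± 1.17 CPM in Mock, 11.1 ± 1.52 in Auxin and 11.7 ± 1.79 in Reintroduction, and the groups overlapped. H3 had 3.81 ± 0.973, 2.88 ± 0.307 and 2.92 ± 0.0356 CPM in the same order, and H4 had 4.78 ± 1.03, 4.53 ± 0.109 and 4.01 ± 0.444. For both of these types Mock replicate 1 was the highest library, at 4.91 CPM for H3 and 5.95 for H4. Without it the Mock means were 3.26 CPM for H3, 4.201 for H4, 2.84 for H1, 6.54 for H2A and 10.4 for H2B. With total counts the H4 ratio of Auxin to Mock moved from 0.946 to 1.10, and with DESeq2 size factors the H2B ratio moved from 1.00 to 0.982.

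**Figure D1:**
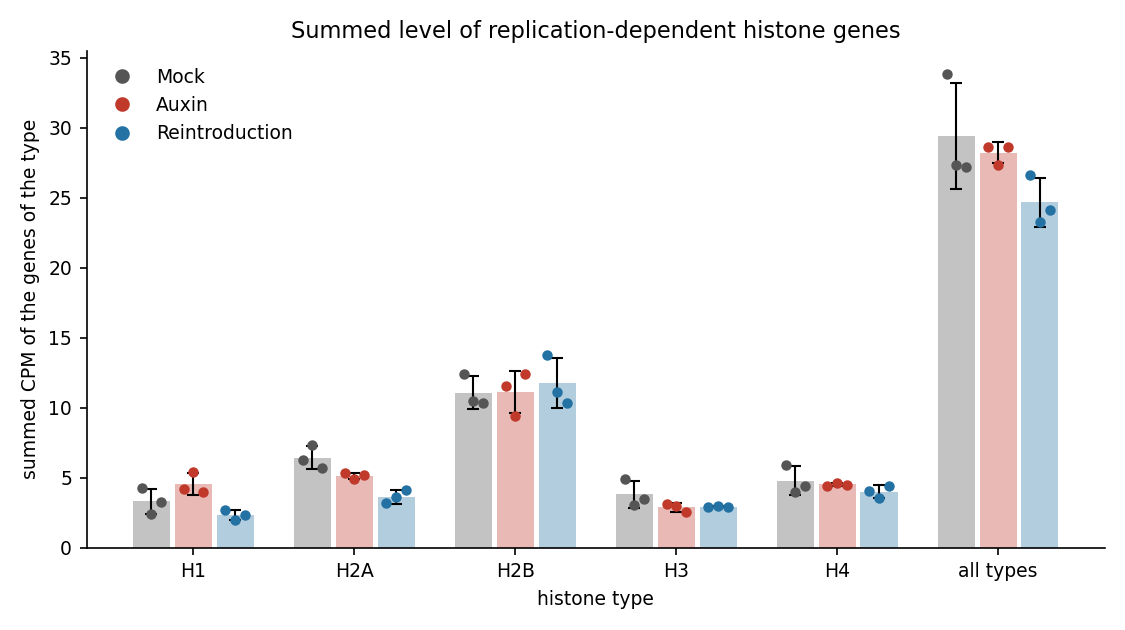
Summed CPM of the histone genes of each type in each library (points), with group mean (bar) and SD (error bar), n = 3. The H2A sum was 6.45 in Mock, 5.14 in Auxin and 3.63 in Reintroduction (6.31, 3.16 and 3.401 without Hist3h2a), the H1 sum was highest in Auxin (4.54), and Mock replicate 1 lay at the top for all types together (33.8).

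Shares within the family take out the level of the family as a whole. H2B genes gave 36.8% to 38.4% of the family's counts in Mock, 34.5% to 43.2% in Auxin and 42.8% to 51.7% in Reintroduction, so that Reintroduction and Mock did not overlap. The H2B sums themselves overlapped (means of 11.1 CPM in Mock and 11.7 in Reintroduction), so this share also follows the lower sums of other types. Hist1h2bc, the largest H2B gene, had means of 4.64 CPM in Mock and 5.80 in Reintroduction. H2A genes gave 18.5% to 26.9% in Mock, 17.8% to 18.6% in Auxin and 11.9% to 17.0% in Reintroduction. H1 genes gave 13.9% to 19.8% in Auxin, above the 8.84% to 12.5% in Mock and the 8.53% to 10.2% in Reintroduction.

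The comparison of Auxin with Mock gives the difference after 96 h of auxin in cells that carry the Suz12 degron. Loss of Suz12 protein is not measured by these counts. Without an untagged group, its effect and an effect of auxin itself cannot be told apart. Of the 51 tested members, 15 fell and 5 rose in Auxin (edgeR quasi-likelihood test, Benjamini-Hochberg over all genes tested, adjusted p under 0.05). That is 39.2% of the members, against a background of 73.2% of all genes called in either direction, 38.4% higher and 34.8% lower. On simulated counts the test recovered 75.0% of 2-fold changes overall but 34.7% of those under 2 CPM in this comparison. For Reintroduction against Auxin the recovery under 2 CPM was 19.7%, and for Reintroduction against Mock 21.9%. The simulation changed 200 genes, far fewer than were called in the data, which alters the cutoff on p. Its recovery therefore does not measure that of the real fit, and the part of low counts in the share called was not tested. The share of members called lower, 15 of 51, was below the background. The median log2 fold change of the tested members was -0.57, against 0.05 for all genes, and 41 of 51 were negative. The 2 groups did not overlap for 25 of the 51 members, against 74.3% of all genes. Without Mock replicate 1 the count of lower genes was 10, of which 9 were among the 15, and the median was -0.27. In bulk poly(A)-selected RNA, fewer cells in S phase, less histone RNA per cell and a change in the part retained cannot be told apart. None of these was tested.

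**Figure D2:**
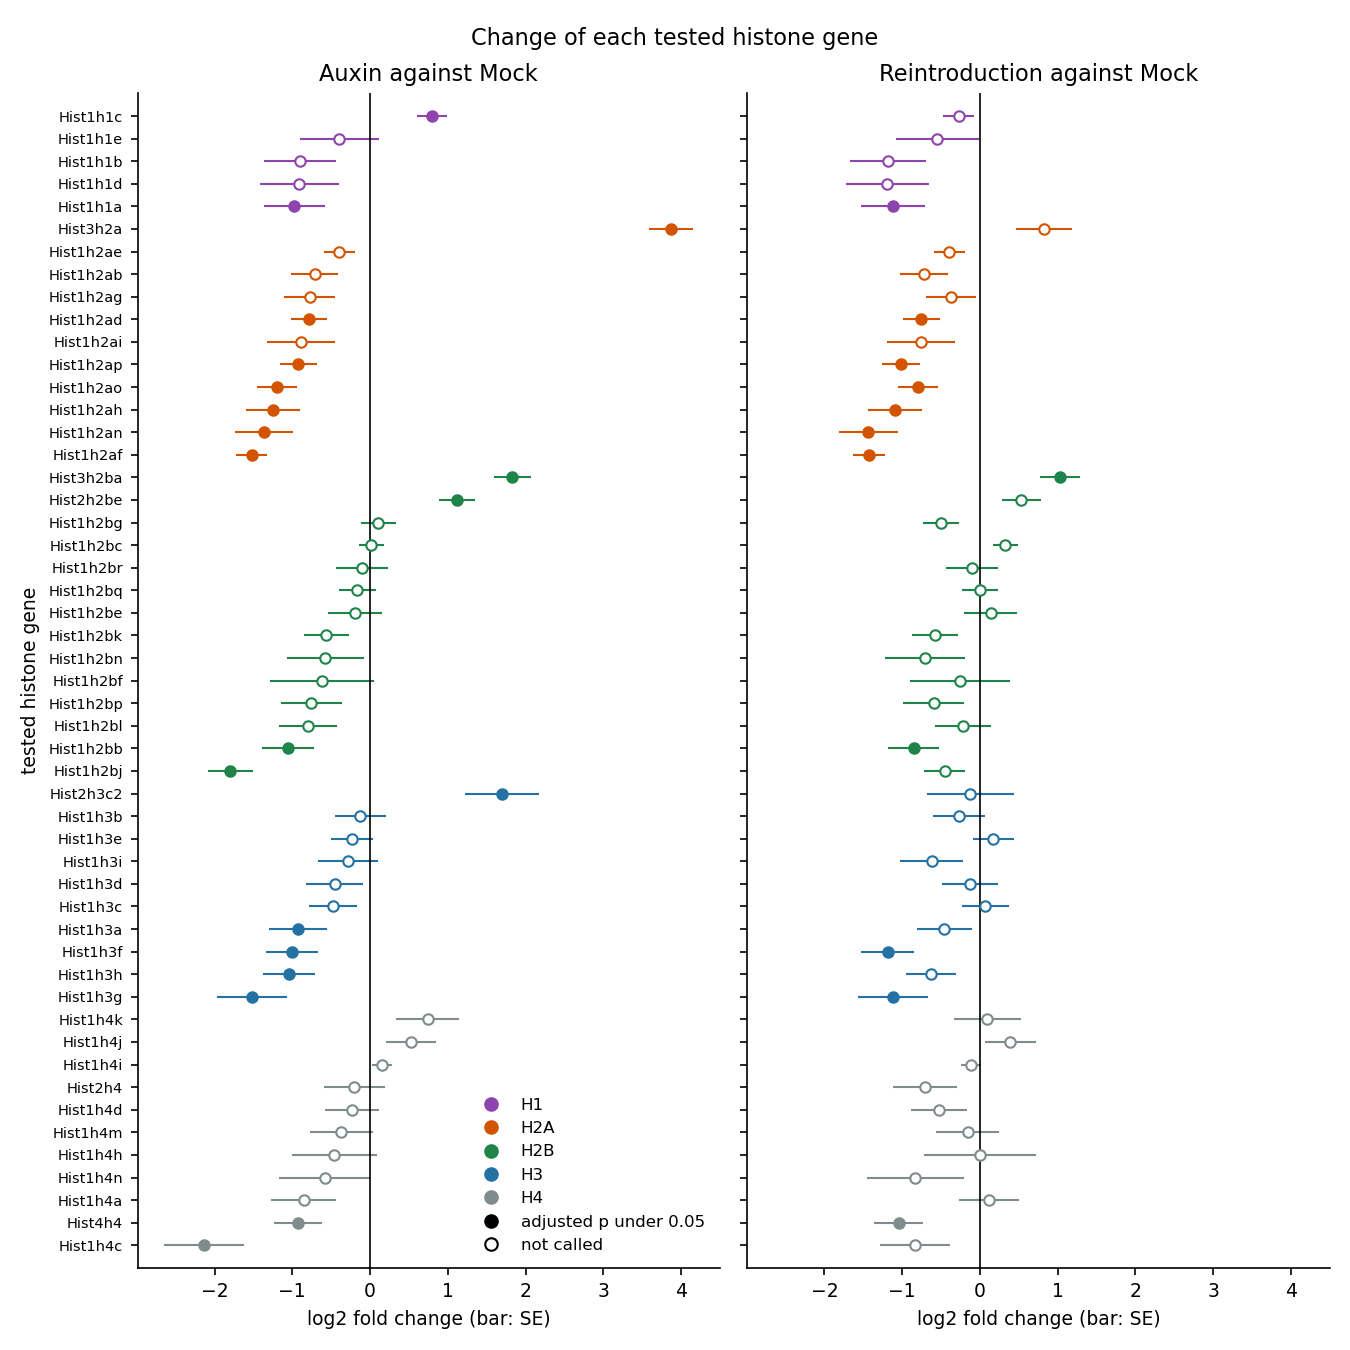
Log2 fold change with SE of the 51 tested histone genes, by type, in Auxin against Mock (left) and Reintroduction against Mock (right); filled points had an adjusted p under 0.05. The 5 genes called higher in Auxin lie in types H1, H2A, H2B and H3, and 10 of 11 H2A genes lie below 0.

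Hist3h2a, an H2A gene of the small Hist3 cluster, showed the largest change of the family (ENSMUSG00000078851.4, mm10 chromosome 11, 58954685 to 58956830, + strand, exon length 2146 bp). It had Mock values of 0.09704, 0.181 and 0.126 CPM, Auxin values of 1.93, 2.02 and 1.97, and Reintroduction values of 0.1505, 0.2004 and 0.343. The Auxin libraries stood far above all others and hardly differed among themselves. The counts behind these levels were 34 in all Mock libraries together, 447 in Auxin and 49 in Reintroduction. The log2 change from Mock to Auxin was 3.88 (standard error 0.284, adjusted p = 2.55e-07), a 14.7-fold rise. Its exon is overlapped over 33.0% by other models, among them Trim17, a gene that starts at the same base. Trim17 itself had Mock values of 0.146, 0.0845 and 0.238 CPM, Auxin values of 0.232, 0.485 and 0.453, and Reintroduction values of 0.351, 0.156 and 0.110, with a log2 change of 1.33 (standard error 0.493, adjusted p = 0.0301) in Auxin against Mock. Reads that belong to Trim17 transcripts but fall in the Hist3h2a exon cannot be told apart here.

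Hist3h2ba, the H2B gene of the same cluster (ENSMUSG00000056895.4, mm10 chromosome 11, 58948920 to 58949533, + strand, exon length 614 bp), changed the same way. It had Mock values of 0.223, 0.266 and 0.168 CPM, Auxin values of 0.890, 0.708 and 0.759, and Reintroduction values of 0.414, 0.534 and 0.429. All Auxin libraries lay above all Reintroduction libraries, which lay above all Mock libraries. Its log2 change from Mock to Auxin was 1.83 (standard error 0.238, adjusted p = 3.06e-05), or 3.55-fold, and its exon is not overlapped by another gene.

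From the Hist2 cluster, the H3 gene Hist2h3c2 (ENSMUSG00000081058.5, mm10 chromosome 3, 96238108 to 96239127, - strand, exon length 1020 bp) had Mock values of 0.291, 0.0965 and 0.168 CPM, Auxin values of 0.866, 0.682 and 0.292, and Reintroduction values of 0.1004, 0.178 and 0.245. The Auxin libraries varied widely among themselves, and the lowest of them lay just above the highest Mock library. The log2 fold change was 1.70 (standard error 0.478, adjusted p = 0.00752). Of its 75-base windows, 62.6% also occur in another gene, so its reads may be shared with near-identical H3 copies.

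The H2B gene Hist2h2be (ENSMUSG00000068854.7, mm10 chromosome 3, 96221119 to 96223738, + strand, exon length 2620 bp), none of whose 75-base windows occurs in another gene, had Mock values of 0.669, 0.555 and 0.727 CPM, Auxin values of 1.78, 1.01 and 1.45, and Reintroduction values of 0.753, 1.14 and 0.9801. All Auxin libraries lay above all Mock libraries, and the Reintroduction values overlapped those of Auxin. Its log2 change from Mock to Auxin was 1.12 (standard error 0.235, adjusted p = 0.00118).

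Hist1h1c, which encodes linker histone H1.2 (ENSMUSG00000036181.2, mm10 chromosome 13, 23738808 to 23740367, + strand, exon length 1560 bp), was the only Hist1 gene called higher. It had Mock values of 2.69, 1.63 and 2.49 CPM, Auxin values of 3.56, 4.76 and 3.55, and Reintroduction values of 2.01, 1.56 and 2.02. Auxin lay above both other groups without overlap, and the log2 fold change was 0.80 (standard error 0.191, adjusted p = 0.00274). With 898 of the 1031 H1 counts in Auxin, this gene carried most of the H1 sum. These 5 rises remained called in all alternatives that tested them, including those without each library.

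**Figure D3:**
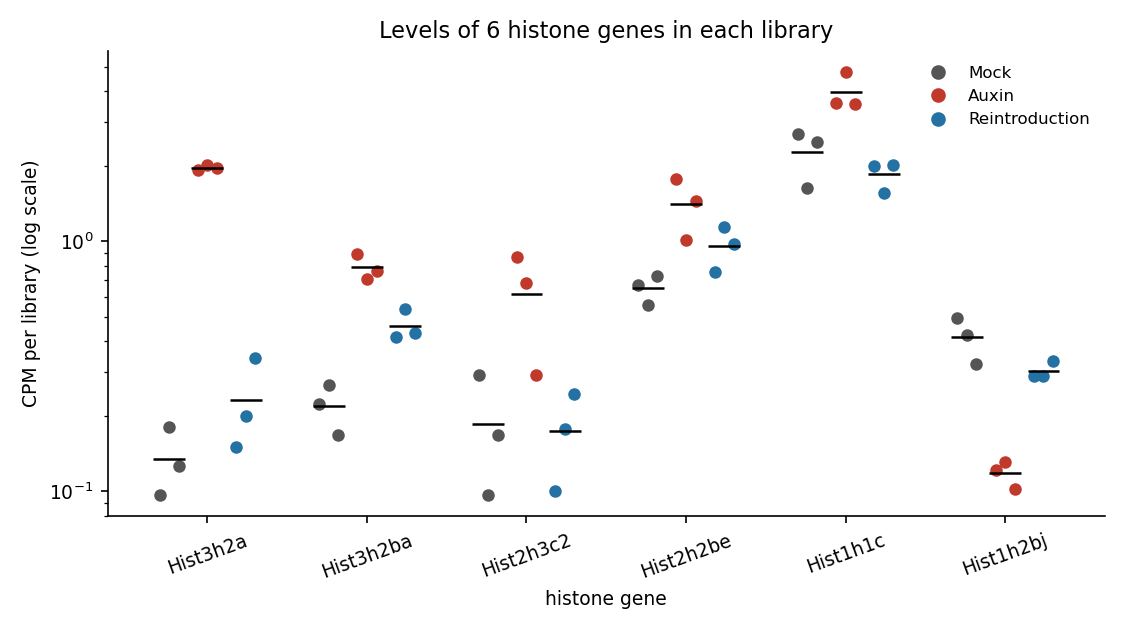
CPM on a log scale of the 5 histone genes called higher in Auxin, and of Hist1h2bj, in each library (points) with the group mean (line), n = 3. Hist3h2a rose from a mean of 0.135 in Mock to 1.97 in Auxin and returned to 0.231 in Reintroduction, while Hist1h2bj fell from 0.413 to 0.118 and came back to 0.303.

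The 15 genes that fell comprised 14 Hist1 genes and Hist4h4. Among H2A genes, 6 of 11 tested fell and 10 of 11 had negative values. Over all genes 34.8% were lower, which is the background for the count of falls in each type. Hist1h2af, the H2A gene with the highest level per kilobase, had Mock values of 1.32, 1.46 and 1.08 CPM, Auxin values of 0.402, 0.446 and 0.496, and Reintroduction values of 0.426, 0.601 and 0.441. The Mock libraries all lay far above every Auxin library, and the log2 fold change was -1.52 (standard error 0.202, adjusted p = 3.47e-05). Hist1h2ao had Mock values of 0.864, 1.13 and 0.713 CPM, Auxin values of 0.366, 0.354 and 0.467, and Reintroduction values of 0.376, 0.557 and 0.637, and a log2 change of -1.197 (adjusted p = 0.00146, edgeR). Hist1h2ap had Mock values of 0.757, 1.15 and 0.811 CPM, Auxin values of 0.585, 0.354 and 0.482, and Reintroduction values of 0.426, 0.468 and 0.453, with a log2 change of -0.93. For both genes all Mock libraries lay above all Auxin libraries. The other 3 H2A genes that fell were Hist1h2an (-1.36), Hist1h2ah (-1.25) and Hist1h2ad (-0.78). For the 6 genes that fell, 65.5% (Hist1h2ad) to 93.1% (Hist1h2ao) of the 75-base windows also occur in another gene. Their reads may thus be shared among near-identical copies, and the falls need not be separate. This share was 34.4% (Hist1h2ae) to 89.3% (Hist1h2ai) for the tested H2A genes not called, and 30.6% for Hist3h2a. All 18 H2A members share exon sequence with another model, mostly annotated miRNA models that had 0 counts, and reads in the shared stretch were not counted for either.

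Among H3 genes 4 of 10 tested fell. Hist1h3g had Mock values of 0.621, 0.676 and 0.448 CPM, Auxin values of 0.159, 0.315 and 0.131, and Reintroduction values of 0.188, 0.534 and 0.159. All Mock libraries lay above all Auxin libraries, and Reintroduction replicate 2 lay with Mock. The log2 fold change was -1.52 (standard error 0.450, adjusted p = 0.009796). Hist1h3h had Mock values of 0.631, 0.386 and 0.392 CPM, Auxin values of 0.195, 0.275 and 0.219, and Reintroduction values of 0.226, 0.267 and 0.416 and a log2 change of -1.04 (standard error 0.328, adjusted p = 0.0137). Hist1h3f had Mock values of 0.534, 0.266 and 0.364 CPM, Auxin values of 0.195, 0.157 and 0.234, and Reintroduction values of 0.1505, 0.2004 and 0.172. Its log2 change from Mock to Auxin was -1.0035 (standard error 0.329, adjusted p = 0.0169). In both genes Mock replicate 1 was the highest library, and neither call held without it. The call of Hist1h3f was also lost without Auxin replicate 2, and that of Hist1h3h with length and GC trends of the libraries removed. Hist1h3a had a log2 change of -0.93 (standard error 0.369, adjusted p = 0.0408). Its call was lost without Mock replicate 1 or 3 and without Auxin replicate 1 or 3. It was also lost with total counts, with the replicate block and with the length trend removed.

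Among H2B genes 2 of 14 tested fell, Hist1h2bj and Hist1h2bb. Hist1h2bj (ENSMUSG00000069300.3, mm10 chromosome 13, 22043214 to 22043676, + strand, exon length 463 bp) had Mock values of 0.495, 0.422 and 0.322 CPM, Auxin values of 0.122, 0.131 and 0.102, and Reintroduction values of 0.288, 0.289 and 0.331. The Auxin libraries were the lowest and close to each other, and no group overlapped Auxin. The log2 fold change was -1.80 (standard error 0.295, adjusted p = 1.93e-04), and 50.4% of its 75-base windows occur in another gene. Hist1h2bb had a log2 change of -1.06 (standard error 0.331, adjusted p = 0.0136). Its call was lost without Mock replicate 1, and also with the length trend of the libraries removed, alone or with the GC trend.

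Among H4 genes 2 of 11 tested fell. Hist1h4c (ENSMUSG00000060678.4, mm10 chromosome 13, 23698060 to 23698454, - strand, exon length 395 bp) had the largest fall of the family but few counts, with 47 in all Mock libraries together, 9 in Auxin and 20 in Reintroduction. It had Mock values of 0.233, 0.133 and 0.168 CPM, Auxin values of 0.0244, 0.0525 and 0.0438, and Reintroduction values of 0.0753, 0.178 and 0.0735. All Auxin libraries lay below all others, and the log2 fold change was -2.13 (standard error 0.516, adjusted p = 0.00299). The total of 9 counts in Auxin leaves the size of the fall imprecise. Mates were counted separately, so these counts can stand for fewer fragments. The gene was not in the test with counts halved, with only these 2 groups fitted, or under a filter of 1 CPM in 3 libraries. Hist4h4, the single gene of Hist4 (ENSMUSG00000096010.2, mm10 chromosome 6, 136801553 to 136804415, - strand, exon length 2863 bp), had Mock values of 0.543, 0.4103 and 0.378 CPM, Auxin values of 0.2804, 0.157 and 0.263, and Reintroduction values of 0.276, 0.178 and 0.184. Mock lay above both other groups, and the log2 fold change was -0.93 (standard error 0.309, adjusted p = 0.0178). That call was lost without Mock replicate 1, without Auxin replicate 2 and with total counts. Among H1 genes Hist1h1a alone was called lower. It had Mock values of 0.573, 0.350 and 0.196 CPM, Auxin values of 0.244, 0.157 and 0.175, and Reintroduction values of 0.201, 0.178 and 0.147, with overlapping groups, and its log2 change of -0.97 (standard error 0.394, adjusted p = 0.0430) lost its call in 8 of 15 alternatives, among them those without Mock replicate 1 or 2 or Auxin replicate 2 or 3.

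The most abundant member was not called. Hist1h2bc (ENSMUSG00000018102.4, mm10 chromosome 13, 23684199 to 23692488, + strand, exon length 736 bp) had Mock values of 4.69, 4.55 and 4.67 CPM, Auxin values of 4.55, 3.86 and 5.71, and Reintroduction values of 7.22, 5.23 and 4.95. Mock libraries were within 4.55 to 4.69 CPM and lay inside the range of Auxin. The log2 fold change was 0.02 (standard error 0.162, adjusted p = 0.924). Hist1h4i had Mock values of 2.11, 1.83 and 1.94 CPM, Auxin values of 2.18, 2.14 and 2.23, and Reintroduction values of 1.71, 1.603 and 2.11. Its Auxin libraries lay slightly above all others, with a log2 change of 0.15 (standard error 0.127, adjusted p = 0.295), which did not pass. Other members that did not pass in Auxin against Mock were Hist1h2bg (0.468 to 0.988 CPM over the 9 libraries, log2 fold change 0.11) and Hist1h2be (0.314 to 0.941 CPM, -0.19), both H2B genes. Among H3 genes, Hist1h3c (0.2804 to 0.757 CPM, -0.48) and Hist1h3e (0.263 to 0.426 CPM, -0.23) did not pass. Among H4 genes, Hist1h4j (0.217 to 0.538 CPM, 0.53), Hist1h4k (0.0891 to 0.585 CPM, 0.74) and Hist1h4d (0.221 to 0.573 CPM, -0.24) did not pass. The linker genes Hist1h1d (0.0445 to 0.437 CPM, -0.91) and Hist1h1b (0.0668 to 0.3105 CPM, -0.90) did not pass either. The positive values of Hist1h4j, Hist1h4k and Hist1h4i passed as rises once length and GC trends of the libraries were removed.

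The comparison of Reintroduction with Auxin asks what changed in the first hours after washout. Of the 51 tested members 1 was higher and 4 were lower, which is 9.8% against 50.9% of all genes (25.5% higher and 25.5% lower). The groups did not overlap for 11 of 51 members, against 58.2% of all genes. The median log2 fold change was -0.002, against 0.003 for all genes, with 26 negative and 25 positive values. Hist1h2bj was the 1 gene called higher, with a log2 change of 1.34 (standard error 0.311, adjusted p = 0.00401). The 4 lower genes had each been called higher in Auxin against Mock. The 2 comparisons share the Auxin libraries, so these values are given side by side and not as separate evidence. Hist3h2a had -3.06 (standard error 0.2703, adjusted p = 4.19e-06), Hist2h3c2 -1.82 (standard error 0.503, adjusted p = 0.01098), Hist1h1c -1.07 (standard error 0.197, adjusted p = 9.41e-04) and Hist3h2ba -0.80 (standard error 0.225, adjusted p = 0.01197). The value of Hist2h2be, -0.58 (standard error 0.233, adjusted p = 0.0560), did not pass. The call of Hist2h3c2 was lost without Reintroduction replicate 1 and that of Hist3h2ba without Auxin replicate 1. No H4 gene was called by edgeR, and the largest H4 value was that of Hist1h4c at 1.30 (standard error 0.583, adjusted p = 0.0863).

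The comparison of Reintroduction with Mock shows what remained after washout. Of the 51 tested members 1 was higher and 11 were lower, which is 23.5% against 68.1% of all genes (34.7% higher and 33.4% lower). With total counts the split was 4 higher and 9 lower. The groups did not overlap for 15 of 51 members, against 75.2% of all genes, and the median was -0.50, against 0.03 for all genes. Without Mock replicate 1 the count of lower genes was 5 and the median -0.30. The 1 higher gene was Hist3h2ba, at 1.03 (standard error 0.254, adjusted p = 0.00387). Hist3h2a, at 0.82 (standard error 0.361, adjusted p = 0.0634), did not pass. Of the 11 lower genes 6 were H2A genes. Hist1h2an had Mock values of 0.427, 0.374 and 0.2797 CPM, Auxin values of 0.171, 0.131 and 0.117, and Reintroduction values of 0.0878, 0.0891 and 0.208, with every Mock library above every other library and a log2 change of -1.43 (standard error 0.3804, adjusted p = 0.00599). Hist1h2af had -1.43 (standard error 0.204, adjusted p = 8.74e-05) and Hist1h3f had -1.19 (standard error 0.342, adjusted p = 0.00951). The remaining lower genes were Hist1h2ap (-1.01), Hist1h2ah (-1.09), Hist1h2ao (-0.80), Hist1h2ad (-0.75), Hist1h2bb (-0.85), Hist1h3g (-1.12), Hist1h1a (-1.12) and Hist4h4 (-1.04). The calls of Hist1h1a, Hist1h2ah, Hist1h2bb, Hist1h3f, Hist1h3g and Hist4h4 were lost without Mock replicate 1. Hist1h2ao and Hist1h3g lost theirs without Mock replicate 2, and Hist1h2bb without Mock replicate 3. Without Reintroduction replicate 1 the calls of Hist1h1a, Hist1h2ah, Hist1h2ao and Hist1h3g were lost. Those of Hist1h1a and Hist1h2bb were lost without Reintroduction replicate 2 and again without replicate 3, the latter with Hist1h3g.

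Counts were also read against the length of the gene models. The models in the count tables are short, with a median exon length of 482 bp (range 312 to 4374), against 2916 bp for all genes tested. Of 30 tested members under 600 bp, 12 fell (40.0%, against 34.8% of all genes) and 0 rose in Auxin, with a median of -0.78. The count of falls was 10 and the median -0.74 without Mock replicate 1. Of 21 members of at least 600 bp, 5 were higher and 3 lower (Hist1h1a, Hist1h3f and Hist4h4), with a median of -0.16. Over all genes 38.4% were higher. In the fit without Mock replicate 1 there were 5 higher and 0 lower, and the median was 0.08. Libraries also differed in how levels followed length over all expressed protein-coding genes. Per doubling of exon length, log2 levels changed by -0.25 to -0.17 over the Mock libraries, by 0.01 to 0.15 over Auxin and by 0.08 to 0.10 over Reintroduction. The decile of shortest protein-coding genes, of median length 1132 bp, had a median log2 fold change of -0.42 in Auxin against Mock, and the longest decile (11440 bp) had 0.62. With length trends removed the members gave 7 higher and 11 lower and a median of -0.32. With length and GC trends removed together they gave 8 higher and 8 lower and a median of -0.25, all 5 rises and 8 of the 15 falls among them. The H2A calls of Hist1h2ad, Hist1h2ah and Hist1h2ap were among those lost, that of Hist1h2ad already with the length trend alone.

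**Figure D4:**
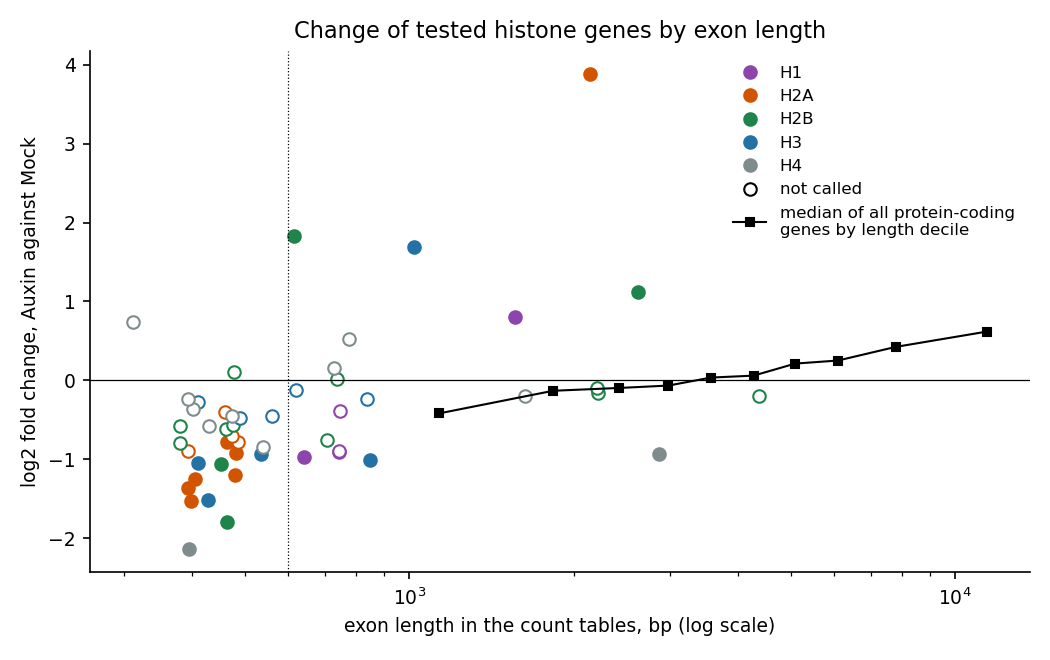
Log2 fold change in Auxin against Mock of the 51 tested histone genes against exon length on a log scale, with filled points for an adjusted p under 0.05; squares give the median of all tested protein-coding genes in each length decile, from -0.42 to 0.62. All 5 genes called higher lie to the right of the dotted line at 600 bp.

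Some counted models run on behind the stem-loop, into sequence that a transcript cut at the normal site does not contain. The stem-loop could be placed in the counted model of 40 members, and the models fell apart into those ending at most 63 bases behind it and those running on for 169 to 2445 bases. Of the 22 tested members with a short end, 7 fell (31.8%) and 0 rose in Auxin, with a median of -0.60. Over all genes 34.8% were lower and 38.4% higher in Auxin against Mock. Of the 10 tested members that run on, 4 were higher and 2 lower, with a median of 0.34. The 4 were Hist3h2a (1643 bases behind the stem-loop), Hist1h1c (840), Hist2h3c2 (377) and Hist3h2ba (169), and the 2 were Hist4h4 (2445) and Hist1h3f (365). Leaving out Mock replicate 1, the members that run on gave 4 higher and 0 lower (median 0.44), and those with a short end gave 0 higher and 6 lower (median -0.39). In Reintroduction against Auxin, with 25.5% of all genes lower and 25.5% higher, 4 of the same 10 were lower and 0 higher. Of the 22, 0 were lower and 1 higher. The 19 tested members whose stem-loop could not be placed belong to neither set. They gave 1 higher (Hist2h2be) and 6 lower in Auxin against Mock, with a median of -0.80. In Reintroduction against Auxin 0 of them were higher and 0 lower. This division was made after the values were seen and has no test.

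Sequence shared between copies touched many members. Over 50% of the 75-base windows, the length of a read, also occur in another gene for 31 of 65 members. Among the 24 tested members of this kind 1 was higher and 8 lower in Auxin (median -0.66), and among the other 27 there were 4 higher and 7 lower (median -0.46). That is 37.5% and 40.7% called, against 73.2% of all genes (38.4% higher and 34.8% lower). With Mock replicate 1 left out, the 24 gave 1 higher and 8 lower, and the 27 gave 4 higher and 2 lower. With the members that share exon sequence with another model left out, 39 tested members remained, of which 9 fell and 4 rose in Auxin against Mock, and 5 fell and 1 rose in Reintroduction against Mock. These were 3 lower and 4 higher, and 0 lower and 2 higher, without Mock replicate 1. In Reintroduction against Mock 33.4% of all genes were lower and 34.7% higher.

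Many H2A and H2B genes lie head to head and share the stretch between their starts. There were 12 such pairs, each of 1 H2A and 1 H2B gene, with 235 to 305 bp between the models. In the 8 pairs with both genes tested, both values in Auxin against Mock were negative in 7. At least 1 partner was called lower in 6 of the 8 pairs, both were in 0, and 0 of the 8 held a gene called higher. Over all genes, counted singly and not in pairs, 34.8% were lower and 38.4% higher. Among the other pairs, Hist2h2be, which rose, lies head to head with Hist2h2ac, which was not tested. In 5 of those 6 pairs the called partner was the H2A gene. In the other, Hist1h2bj fell by 1.80 and Hist1h2ag had -0.78, which did not pass. Without Mock replicate 1 both values were negative in 5 pairs, at least 1 partner was called lower in 6 and both were in 1.

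Genes that act on histone mRNA were measured at far higher levels than the histone genes themselves. Of 23 genes for transcription and processing of histone mRNA, 15 fell and 4 rose in Auxin, with a median of -0.37, against the background of 34.8% lower and 38.4% higher. There were 15 lower and 2 higher without Mock replicate 1. Slbp, which encodes the stem-loop binding protein, fell from 130 ± 2.22 to 57.8 ± 5.17 CPM (mean ± SD, n = 3) and was 66.3 ± 1.04 in Reintroduction. Its log2 fold change was -1.16 (standard error 0.0632, adjusted p = 2.37e-08) in Auxin against Mock and 0.20 (standard error 0.0628, adjusted p = 0.0219) in Reintroduction against Auxin. Slbp shares exon sequence with another gene. The cap-binding subunit Ncbp1 (-1.06), its partner Srrt (-0.85), the RNA helicase Upf1 (-0.40), the exonuclease Eri1 (-0.28) and the cleavage subunits Cpsf2 (-0.60) and Cpsf3 (-0.62) fell in Auxin. The U7 snRNP subunits split, with Lsm10 at -0.69 (lower) and Lsm11 at 0.14 (higher). Also called higher were Tut7 (0.88), Pou2f1 (0.57) and Hinfp (0.24). Ncbp2 (-0.88), E2f1 (-0.86), Zfp473 (-0.77), Mif4gd (-0.73), Cpsf1 (-0.37), Cstf3 (-0.31) and Sympk (-0.19) were also called lower. Cstf2 (0.12) and Yy1 (-0.07) did not pass. Npat had 0.22 (standard error 0.164, adjusted p = 0.246) and Casp8ap2, a protein of the histone locus body, -0.20 (standard error 0.239, adjusted p = 0.457), and neither passed. The Auxin libraries spread widely for both, with values of 66.5, 42.8 and 77.6 CPM for Npat and 64.0, 36.9 and 85.4 for Casp8ap2. Auxin replicate 2 was the lowest in each. In Reintroduction against Auxin 9 of the 23 were higher and 6 lower, Casp8ap2 among the higher at 0.92 (standard error 0.241, adjusted p = 0.007897).

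Most S-phase genes were lower in Auxin. Of 27 S-phase genes, 25 fell in Auxin and 0 rose, with a median of -1.03. The helicase subunit Mcm5 fell from 849 ± 25.4 to 491 ± 39.3 CPM. Mcm3 had a log2 change of -0.89 and Mcm6 of -1.04. In Reintroduction against Auxin 21 of the 27 were higher and 1 lower, with a median of 0.33. Over all genes 34.8% were lower and 38.4% higher in Auxin against Mock, and 25.5% lower and 25.5% higher in Reintroduction against Auxin. These shares are the background for the S-phase, G2 and M, chaperone, variant and marker lists. Ccne1, which encodes cyclin E1, had 203 ± 10.3 CPM in Mock, 34.9 ± 3.99 in Auxin and 86.3 ± 1.72 in Reintroduction, and was chosen after its values were seen. Of 18 genes of G2 and M phase, 12 fell and 2 rose in Auxin, with a median of -0.63. Of the other marker lists, 6 of 8 stem cell markers were higher and 2 lower, 3 of 5 tested trophoblast markers higher and 2 lower, and 1 of 3 tested fibroblast markers higher and 1 lower.

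Histone chaperones, which carry histones to DNA, were mostly lower in Auxin. Of 17 chaperone genes 2 were higher and 14 lower in Auxin (median -0.93), and 13 were higher and 2 lower in Reintroduction against Auxin (median 0.37). Nasp, a chaperone of H3 and H4, had 765 ± 41.8 CPM in Mock, 354 ± 99.1 in Auxin and 664 ± 27.01 in Reintroduction. Nap1l1, a chaperone of H2A and H2B, had a log2 change of -1.16 in Auxin against Mock, and Ssrp1 of the FACT complex had -1.25. Mcm2 is on both the S-phase and the chaperone list, and Slbp is on both the S-phase and the processing list.

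The replication-independent variants, which have polyadenylated mRNAs, split in Auxin. Of 11 variant genes 4 were higher and 6 lower, with a median of -0.26. H3f3b, a gene of H3.3, rose from 644 ± 23.8 to 999 ± 87.4 CPM and fell to 531 ± 6.101 in Reintroduction. H2afz, the gene of H2A.Z, fell from 799 ± 48.5 to 276 ± 37.6 CPM and was 325 ± 20.5 in Reintroduction. H2afy, a gene of macroH2A, had a log2 change of 0.40 (standard error 0.0589, adjusted p = 7.52e-05). H1f0, the gene of linker histone H1.0, was chosen after its values were seen: it had 41.4 ± 1.23 CPM in Mock, 150 ± 11.6 in Auxin and 30.4 ± 3.33 in Reintroduction. Its log2 fold changes were 1.85 in Auxin against Mock and -2.30 in Reintroduction against Auxin, beside 0.80 and -1.07 for Hist1h1c. In Reintroduction against Auxin 0 of the 11 variants were higher and 6 lower.

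**Figure D5:**
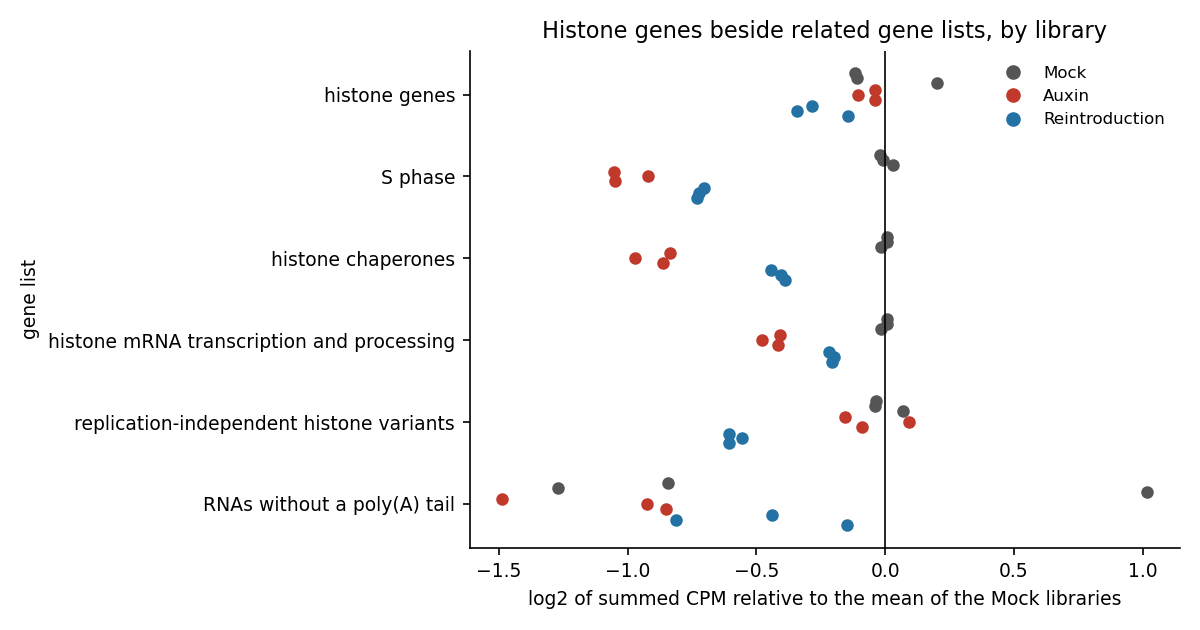
Summed CPM of the 65 histone genes and of 5 gene lists in each library, as log2 relative to the mean of the Mock libraries. The S-phase and chaperone lists lie lowest in Auxin, the histone genes overlap between Auxin and Mock, and Mock replicate 1 stands apart in RNAs without a poly(A) tail (17.3 CPM).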

How the data were processed

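Poly(A) RNA from 9 libraries was prepared with TruSeq kits and sequenced in paired 75-base reads, per the labels' protocols. The authors deposited unnormalized counts of reads for each gene, made with featureCounts 2.0.6 per the file headers, which show the paired-end option without counting of pairs and no strand option, so mates were counted separately and strand was ignored; member counts from 1 to 20 were even 173 times and odd 91 times. The submitters' processing notes name mm10, Trim Galore 0.6.10, FastQC 0.12.1, Bowtie2 2.5.3 and SAMtools 1.20 without role or order. How reads from near-identical histone copies were placed is not given in the sources used here. Gene identifiers of the tables were named from GENCODE M21 (48058 of 48440 matched). Hist1h2bm and Hist1h2bh were not matched by identifier and are not analysed here.

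Counts were tested with edgeR 4.0.16 in R 4.3.3 (filterByExpr, minimum count 10, TMM factors, quasi-likelihood F test, all 9 libraries in 1 fit by group, two-sided, Benjamini-Hochberg over 20838 genes, adjusted p under 0.05). DESeq2 1.42.0 was an alternative; the others changed scaling, filter, samples, replicate block, length and GC trends, halved counts, shared exons, and left out each library; leaving Hist3h2a out of the H2A sum was added after seeing the data. Named genes are the 4 members of each type with the highest mean CPM, and the 3 largest rises and falls per comparison among called members without overlap; further members are given by value. Listed genes named are mostly the 3 with the highest CPM of their list and those of the histone mRNA list. From the G2 and M phase list no gene is named. Members, lists and divisions were chosen with earlier results of these data known. Counts of calls in members are descriptions beside all genes, with no test of the list. Each edgeR standard error was back-calculated as the absolute log2 fold change divided by the square root of the F statistic. It is approximate, above all for very small changes. On simulated counts with 200 genes changed 2-fold, the test recovered 75.0%, 74.5% and 74.0% in the 3 comparisons (20463, 20453 and 20448 genes), and false calls were 5.66%, 6.29% and 3.90%. The design text says biological replicates but names no separate cultures, so p-values measure the spread between these samples, which may be technical; no pair of replicates agreed within sampling noise. Auxin replicate 2 stood furthest from its group. The mean chi-square per gene was 63.5 for Auxin replicates 1 and 2, 79.6 for 2 and 3, and 8.33 for 1 and 3. For Mock it was 27.6 for replicates 1 and 2, 21.6 for 1 and 3, and 4.48 for 2 and 3. The common biological coefficient of variation was 9.15%. Libraries of the same number did not deviate together (correlations -0.172 to 0.055), so the numbers were not taken as pairs.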

Additional observations from a re-analysis of the deposited data

How the results depend on the processing

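Counts were low: 6 of the 51 tested members remained in the test when at least 1 CPM in 3 libraries was required, which gave 3 higher and 1 lower in Auxin against Mock (median 0.55), 0 higher in Reintroduction against Auxin (median -0.48), and 0 higher and 1 lower in Reintroduction against Mock (median 0.13). Removing the length trend gave a median of -0.32 in Auxin against Mock, and 2 higher and 6 lower in Reintroduction against Mock. Removing length and GC trends gave 8 higher and 8 lower (median -0.25) in Auxin against Mock, and 2 higher and 7 lower (median -0.16) in Reintroduction against Mock. Total counts, which shifted the median of all genes by 0.21 in Auxin against Mock and 0.13 in Reintroduction against Mock, gave 7 lower in Reintroduction against Auxin, 4 higher in Reintroduction against Mock, and Auxin to Mock ratios of the summed level of 1.11 for all types and 0.922 for H2A. Per kilobase these ratios were 0.793 and 0.557, and those of Reintroduction to Auxin were 0.975 for all types and 0.966 for H2A. Leaving Hist3h2a out of the H2A sum, an alternative chosen after seeing the data, gave 0.501 in Auxin against Mock and 1.075 in Reintroduction against Auxin, so the latter changed direction. A fit of the 2 groups alone gave 3 higher in Reintroduction against Mock. In Auxin against Mock total counts gave 6 higher and 12 lower, without the falls of Hist1h1a, Hist1h3a and Hist4h4. Halved counts, used because mates were counted separately, left 36 members in the test. They gave 5 higher and 12 lower in Auxin against Mock (median -0.45), without the falls of Hist1h2bb, Hist1h3f and Hist1h4c. They gave 1 higher and 5 lower in Reintroduction against Auxin, and 1 and 9 in Reintroduction against Mock. Leaving out members that share exons gave 9 lower in Auxin against Mock and 5 in Reintroduction against Mock. With the replicate number as a block (replicate block), Auxin against Mock gave 5 higher and 14 lower, Reintroduction against Auxin 1 and 4, and Reintroduction against Mock 1 and 12; the numbers share no pairing in these data. Leaving out 1 library at a time gave 5 higher throughout, 10 to 16 lower and medians from -0.74 to -0.27 in Auxin against Mock; 1 to 2 higher and 3 to 6 lower in Reintroduction against Auxin (2 higher without Auxin replicate 2 or 3); and 1 to 2 higher, 5 to 13 lower and medians from -0.62 to -0.30 in Reintroduction against Mock (2 higher without Mock replicate 1 or 2 or Reintroduction replicate 1, and 5 lower without Mock replicate 1). The cause of these differences was not tested, apart from the smaller number of genes under the stricter filter, without shared exons and without Hist3h2a. None of the named called genes changed its sign under any of these alternatives.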

Other observations

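Among 8749 protein-coding genes outside the family with a mean of at least 10 CPM, the 5 whose log2 CPM was most like the log2 of the family's summed CPM over the 9 libraries were Ppp1r12c (Pearson r = 0.92), Ltbp4 (0.918), Ilvbl (0.915), Gnb1l (0.897) and Rhbdd3 (0.86). These are descriptions over 9 libraries that share groups and depth, with no test.

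3 annotated histone pseudogenes of the same symbols were left out by the rule. Hist1h2aj had 72 counts in Mock, 34 in Auxin and 38 in Reintroduction over 3 libraries each. Hist1h2al had 26, 40 and 18 counts in the same order, and Hist3h2bb-ps, which lies just before the start of Hist3h2a, had 2, 3 and 6.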
